A study of Mus musculus with 4 samples.

Results

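The adipogenic transcription factors are the regulators that switch a mesenchymal precursor onto the fat cell programme, and 9 of them were followed here out of 32285 genes in the count tables: Pparg, Cebpa, Cebpb, Cebpd, Klf15, Ebf1, Ebf2, Zfp423 and Srebf1. They were listed by name for their known roles, and all 9 had counts in each library. Levels, shares of cells with a UMI (unique molecular identifier, 1 counted RNA molecule) and detection of pairs in the same cell were taken over 22049 of 39891 barcodes, those with at least 5000 UMIs, at least 1500 genes and at most 20% of UMIs from mitochondrial genes. The cells were split by the UMIs summed over 5 adipocyte genes that are not among the 9 (Adipoq, Plin1, Cidec, Retn and Cfd). This gave 74 positive cells with at least 10 such UMIs, 490 intermediate cells with 1 to 9, and 21485 negative cells with none.

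The study asked how a cancer-associated change of arginine 26 of histone H3 to cysteine alters differentiation of mesenchymal progenitor cells (MPC). The MPC were mouse C3H 10T1/2 cells, an embryonic fibroblast line that can form muscle, fat and cartilage cells after 5-Azacytidine (5-Aza), an inhibitor of DNA methylation. The 4 libraries were H3WT cells given DMSO, H3WT cells given 5-Aza, H3R26C cells given DMSO and H3R26C cells given 5-Aza, with 1 library per condition. Per the study's methods, 5-Aza was given at 3 uM for 24 h and differentiated cells were taken on day 28, while a separate day for the DMSO cells is not given in the sources used here. All cells carried a puromycin-selected lentiviral transgene for tagged human H3.1 under the EF1 promoter, wild type or mutant, and the cells' own H3 genes were still present.

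Fat cell formation runs as a relay of transcription factors. Cebpb and Cebpd are induced early by hormonal signals and help to switch on Pparg and Cebpa, which then maintain each other's expression and drive the genes of lipid storage. Zfp423 and the EBF proteins act in committed precursors upstream of Pparg, Klf15 is induced later and supports Pparg and insulin-responsive genes, and Srebf1 encodes SREBP-1, the activator of fatty acid synthesis. C3H 10T1/2 cells are a classical line in which 5-Aza reveals this programme beside muscle.

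On GRCm38, the assembly also called mm10, the master regulators lie at chr6:115360951-115490399 (Pparg, plus strand) and chr7:35119293-35121928 (Cebpa, plus strand). The early factors lie at chr2:167688915-167690418 (Cebpb, plus strand) and chr16:15887286-15891031 (Cebpd, plus strand). The precursor factors lie at chr11:44617317-45008091 (Ebf1, plus strand), chr14:67233292-67430918 (Ebf2, plus strand) and chr8:87661810-87959595 (Zfp423, minus strand). Klf15 lies at chr6:90462576-90475238 on the plus strand, and Srebf1 at chr11:60199089-60222581 on the minus strand. All but Klf15 and Zfp423 overlap an annotated gene on the other strand (for example Gm45091 at Cebpa, Tmem189 at Cebpb and Rai1 at Srebf1), and the strand setting of the counting is not given in the sources used here, so reads from such pairs may not be told apart.

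The 250 bases before the start site are shown for the 4 members with the largest differences between positive and negative cells, with binding motifs marked. Levels were counted per gene, so they cannot be assigned to 1 of several starts. RefSeq (GRCm38.p6) gave windows for 7 of the 9 members, and none was found for Cebpd and Ebf2. Each is written 5′ to 3′ on the gene's strand, with capitals on matches, on either strand, to TTGCNNAA (C/EBP), CCCNNGGG (EBF), AGGTCA (nuclear receptor site), CACCC (KLF) and CACGTG (E-box). The Pparg window, chr6:115421816-115422065, belongs to the last of 3 listed starts, inside an intron of the gene. The Cebpa window is chr7:35119043-35119292, within Gm45091 but outside exons. The Klf15 window is chr6:90462326-90462575, outside annotated genes, and the Srebf1 window, chr11:60220628-60220877, is that of the second of 3 starts, inside the gene but outside exons. These windows of Pparg and Srebf1 were chosen after the matches were seen.
Pparg: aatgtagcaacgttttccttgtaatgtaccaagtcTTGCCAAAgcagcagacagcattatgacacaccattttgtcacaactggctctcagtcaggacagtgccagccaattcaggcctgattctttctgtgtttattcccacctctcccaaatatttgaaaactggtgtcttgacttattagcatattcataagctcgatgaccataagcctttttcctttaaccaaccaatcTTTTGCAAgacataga
Cebpa: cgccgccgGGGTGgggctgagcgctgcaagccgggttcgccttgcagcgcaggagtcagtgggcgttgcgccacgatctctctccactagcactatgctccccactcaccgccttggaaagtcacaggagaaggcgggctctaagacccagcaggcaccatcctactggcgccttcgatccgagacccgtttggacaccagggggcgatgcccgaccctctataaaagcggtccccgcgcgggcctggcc
Klf15: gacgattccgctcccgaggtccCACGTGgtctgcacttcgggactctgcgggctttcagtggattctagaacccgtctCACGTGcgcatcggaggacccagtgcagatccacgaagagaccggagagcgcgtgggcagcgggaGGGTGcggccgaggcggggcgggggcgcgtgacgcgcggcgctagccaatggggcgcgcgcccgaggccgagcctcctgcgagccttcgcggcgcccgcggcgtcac
Srebf1: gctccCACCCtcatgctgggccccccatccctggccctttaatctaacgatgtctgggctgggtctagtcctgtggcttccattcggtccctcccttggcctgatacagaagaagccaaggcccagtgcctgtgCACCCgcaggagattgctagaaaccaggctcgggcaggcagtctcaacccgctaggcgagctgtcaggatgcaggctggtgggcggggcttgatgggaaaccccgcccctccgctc
The Pparg window held 2 matches to the C/EBP motif, starting 215 and 16 bases before the start site, while 9.56% of the 32851 mouse promoters in the same table held at least 1. The Klf15 window held 2 E-boxes, 228 and 172 bases before the start, against 6.02% of promoters with 1 or more. CACCC was found in the Cebpa, Klf15 and Srebf1 windows and in 52.0% of all promoters. None of the matches printed overlapped another motif, and the EBF motif and the AGGTCA site, in 11.8% and 14.0% of promoters, were not found in these 4 windows. The windows not printed differed: those of the other Pparg starts held CACCC and AGGTCA but no C/EBP match, and 1 of the other Srebf1 windows held the EBF motif beside CACCC.

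The kept cells held 84060490 to 110712425 UMIs per library, with medians of 13123 to 22420 UMIs and 3864 to 5058.5 genes per cell. Positive cells numbered 13, 31, 13 and 17 in H3WT DMSO, H3WT 5-Aza, H3R26C DMSO and H3R26C 5-Aza, which is 0.350%, 0.517%, 0.275% and 0.223% of kept cells. Their median depth was 17031 to 25251 UMIs, against 13121 to 22455 in negative cells, and it was the greater in each library except H3WT DMSO (21431 against 22455). The label MPC matched the 5 progenitor markers (Ly6a, Pdgfra, Pdgfrb, Thy1 and Cd44), which summed to 1007 to 1961 UMIs per 1000000 (CPM) with none at 0. A group of 292 muscle-like cells, with at least 100 UMIs over Acta1, Myh3, Myl1, Tnnt3 and Tnnc2, was present only in the 5-Aza libraries (112 and 180 cells). Doublets were not removed, 1 cell was both positive and muscle-like, and pairs of libraries shared 24 to 58 barcodes. Intervals below are 95% and exact, and cover counting error only.

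The positive cells carried far more Cebpa, Srebf1, Pparg and Klf15 RNA than the negative cells of the same library, moderately more Cebpb, and less Cebpd and Ebf1. Counts were summed over the cells of each class in each library, and the 8 sums were compared by edgeR's quasi-likelihood test with the library as a block, with Benjamini-Hochberg adjustment over the 11451 genes that averaged 2 CPM or more in the 8 sums. At an adjusted p under 0.05, 6 of the 9 members were higher and 2 were lower, beside 28.6% of all genes tested (13.7% higher, 14.9% lower). The cells were split by adipocyte genes, so higher levels of factors that drive such genes were partly set by the split. The members were also chosen with earlier results of these data known. The median log2 difference over all genes was -0.14, and -0.37 without TMM scaling, where the split of called genes moved from 1567 higher and 1709 lower to 1208 higher and 2728 lower. Fitted differences below include TMM scaling, whereas ratios within a library are of unscaled CPM, so the fitted values lie higher. Klf15 reached 2 CPM only through the positive cells (0.613 CPM on average in the negative ones), so its presence among the genes tested was not independent of its difference. The libraries differ in condition, so the test speaks of what the 4 have in common.

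**Figure D1:**
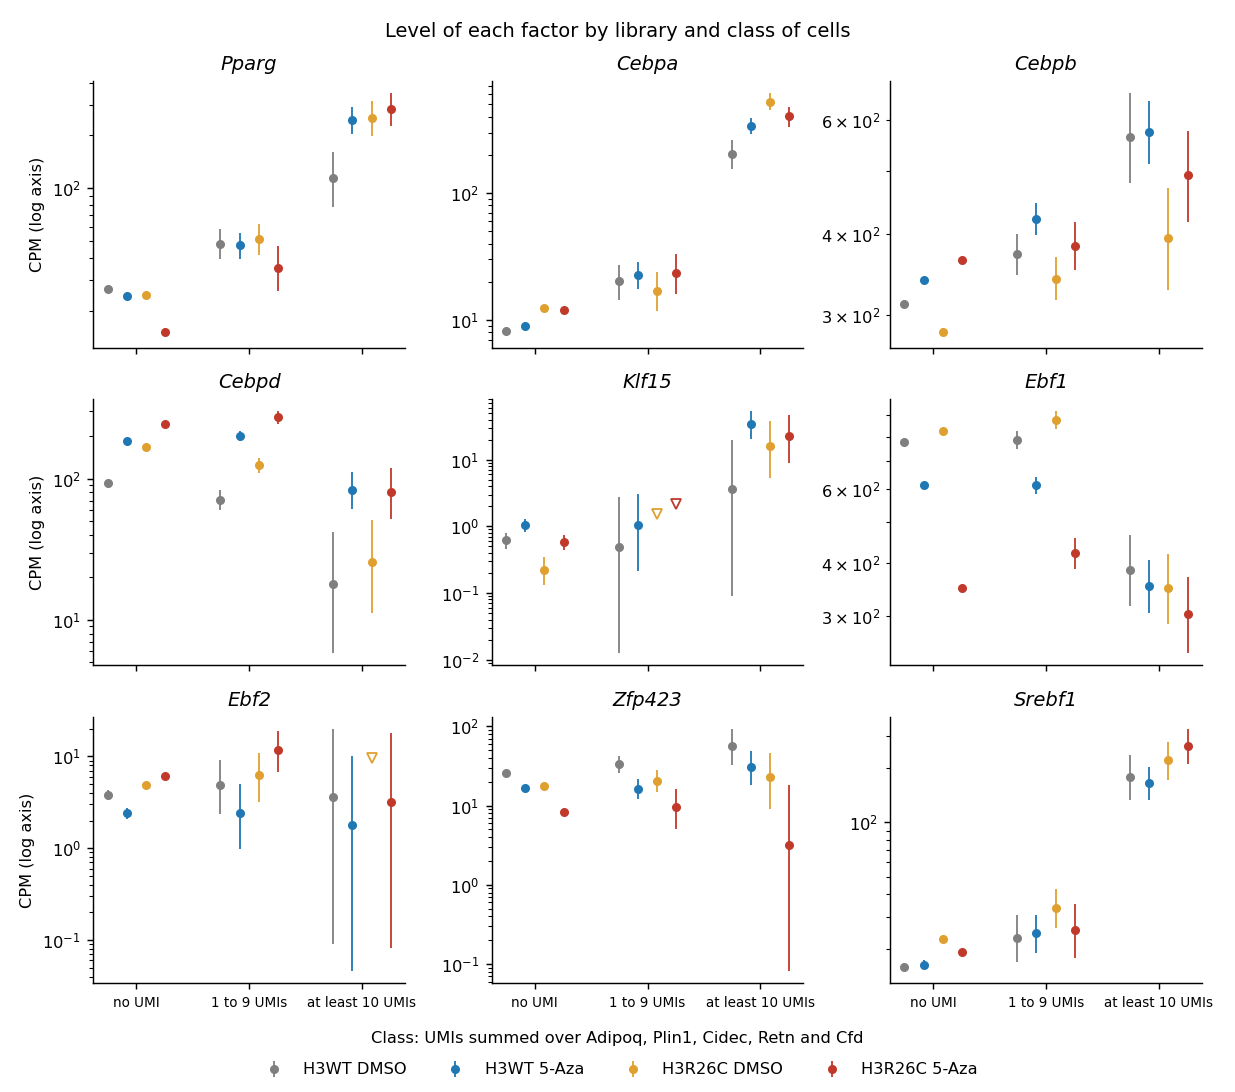
Level of each of the 9 members (CPM, log axis) in negative cells, cells with 1 to 9 UMIs and positive cells (no UMI, 1 to 9, at least 10 over the 5 adipocyte genes), with 1 point per library, exact 95% Poisson intervals, and open triangles at the limit set by a floor of 3 counts where no UMI was seen. Cebpa climbs from 8.16 to 12.4 CPM in negative cells to 203 to 527 CPM in positive cells, while Ebf1 and Cebpd lie lower in positive cells in each library.

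Cebpa, which with Pparg holds cells in the fat cell state, differed by the most in the fit, together with Klf15, whose SE was larger and whose estimate exceeded it without H3WT DMSO (5.65 against 5.48) and with a gate of 20 UMIs (5.45 against 5.44). Its level in positive cells was 203 CPM in H3WT DMSO, 338 in H3WT 5-Aza, 527 in H3R26C DMSO and 402 in H3R26C 5-Aza. In negative cells it was 8.16, 8.97, 12.4 and 11.9 CPM in the same order. The classes did not overlap, and the ratio within a library ran from 24.9 to 42.3. The log2 difference was 5.33 ± 0.205 (SE; adjusted p = 2.11e-10, edgeR quasi-likelihood test, 4 of 4 libraries higher). Although positive cells were under 1% of cells, they held 11.98% of all Cebpa UMIs.

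Pparg, the nuclear receptor that is required for fat cell formation, stood at 114, 244, 252 and 283 CPM in positive cells in the same library order. In negative cells it stood at 26.6, 24.1, 24.6 and 15.1 CPM. The classes were apart in each library, by the least in H3WT DMSO (4.29-fold, interval 2.93 to 6.07) and by the most in H3R26C 5-Aza (18.7-fold, 14.9 to 23.2), so the size of the ratio depended on the library. The log2 difference was 3.54 ± 0.267 (SE; adjusted p = 2.06e-07 by the edgeR quasi-likelihood test). Positive cells held 3.88% of the Pparg UMIs and negative cells 91.7%.

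Srebf1, the lipogenic activator, was the most even of the strongly raised members across libraries. Positive cells had 178, 165, 220 and 264 CPM and negative cells 15.9, 16.4, 22.7 and 19.2 CPM in the same library order. No positive value came near a negative one, and the ratios lay between 9.66 and 13.7. The log2 difference was 3.69 ± 0.167 (SE; adjusted p = 1.02e-09, edgeR quasi-likelihood test).

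Klf15, a Krüppel-like factor of mature adipocytes, was rare outside positive cells. It had 1, 19, 5 and 7 UMIs in positive cells, which is 3.57, 34.4, 16.2 and 22.5 CPM, and 0.615, 1.04, 0.220 and 0.578 CPM in negative cells. The positive values were higher in each library, but in H3WT DMSO the ratio rested on 1 UMI (5.81, interval 0.144 to 33.8). The fitted log2 difference was 5.22 ± 0.691 (SE; adjusted p = 4.44e-05 by the edgeR quasi-likelihood test), and 32 UMIs in 74 cells made up 12.6% of the gene's UMIs.

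**Figure D2:**
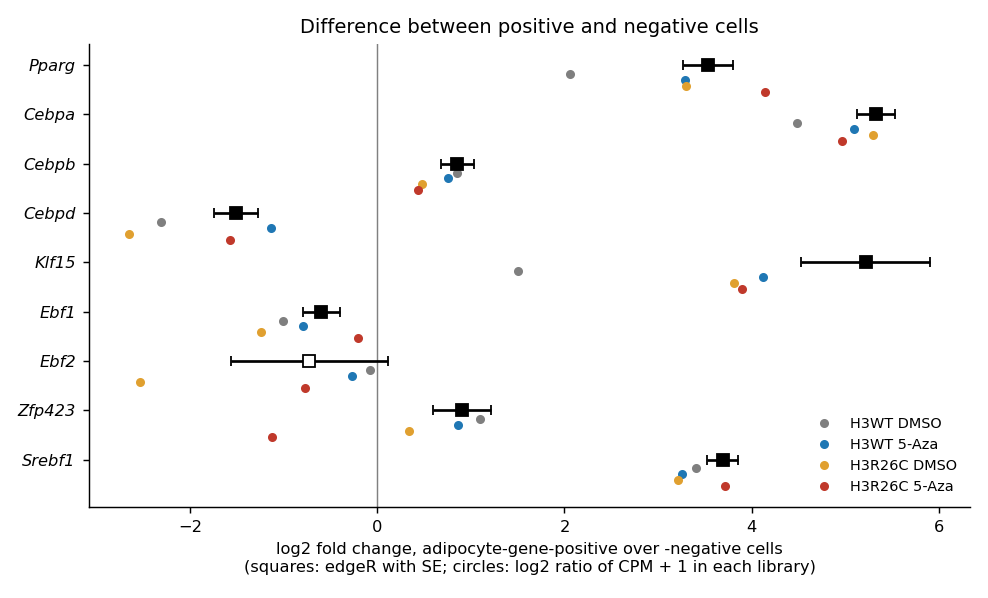
Log2 difference between positive and negative cells for the 9 members. Squares show the edgeR estimate ± SE, with TMM scaling (filled at an adjusted p under 0.05). Circles show the log2 ratio of CPM + 1 in each of the 4 libraries, without TMM scaling. Cebpa (5.33), Klf15 (5.22), Srebf1 (3.69) and Pparg (3.54) lie far to the right, Cebpd (-1.51) and Ebf1 (-0.60) to the left, and the Zfp423 circles fall on both sides of 0.

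The early C/EBP factors differed in opposite directions. Cebpb, which is already abundant in proliferating precursors, had 564, 574, 394 and 492 CPM in positive cells against 312, 339, 282 and 364 CPM in negative cells. It was higher in each library by 1.35- to 1.81-fold in unscaled CPM. The fitted log2 difference of Cebpb, with TMM scaling, was 0.85 ± 0.176 (SE; adjusted p = 0.00185, edgeR quasi-likelihood test), and 0.63 without that scaling. Cebpd had 17.8, 83.2, 25.8 and 80.4 CPM in positive cells against 92.8, 184, 168 and 242 CPM in negative cells. Within each library the positive cells were lower, at 0.154 to 0.451 of the negative level, and both 5-Aza libraries exceeded both DMSO libraries in either class. The log2 difference of Cebpd was -1.51 ± 0.238 (SE; adjusted p = 0.000212 by the edgeR quasi-likelihood test).

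The precursor factors showed smaller differences that were less stable. Ebf1, which acts with Pparg on adipocyte genes, had 386, 353, 349 and 302 CPM in positive cells against 778, 614, 825 and 349 CPM in negative cells. The positive level was lower throughout, with an interval of the ratio that included 1 in H3R26C 5-Aza (0.867, 0.700 to 1.06). The log2 difference was -0.60 ± 0.200 (SE; adjusted p = 0.0371, edgeR quasi-likelihood test), and leaving out H3WT DMSO, H3WT 5-Aza or H3R26C DMSO ended the call (adjusted p = 0.155, 0.123 and 0.120).

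Zfp423, a zinc finger protein of committed preadipocytes, had 16, 17, 7 and 1 UMIs in positive cells, or 57.1, 30.8, 22.6 and 3.22 CPM, against 26.1, 16.5, 17.6 and 8.23 CPM in negative cells. It was higher in 3 libraries and lower in H3R26C 5-Aza. The log2 difference of 0.90 ± 0.309 (SE) passed narrowly (adjusted p = 0.0409, edgeR quasi-likelihood test) and was called in 6 of 16 alternative fits, with adjusted p = 0.235 without H3WT DMSO, 0.209 without H3WT 5-Aza and 0.0578 without H3R26C DMSO.

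Ebf2, a factor of brown and beige precursors, had 1, 1, 0 and 1 UMIs in positive cells. The 0 in H3R26C DMSO allows up to 9.69 CPM (3 counts), above the 4.82 CPM of the negative cells there, so a difference was not detectable at this depth. The log2 difference was -0.72 ± 0.837 (SE; adjusted p = 0.566 by the edgeR quasi-likelihood test).

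Cell by cell, Pparg, Cebpa and Srebf1 were also found in a larger share of positive cells. After each cell was thinned to 5000 UMIs, 56.8% of the 74 positive cells (interval 44.7 to 68.2) had a Pparg UMI, against 9.76% of negative cells (9.37 to 10.2). Cebpa was found in 62.2% (50.1 to 73.2) against 5.08% (4.79 to 5.38), and Srebf1 in 56.8% (44.7 to 68.2) against 9.18% (8.80 to 9.58). Unthinned, the shares were 87.8%, 90.5% and 86.5% in positive cells and 26.6%, 14.1% and 25.2% in negative cells. For comparison, the muscle-like cells had median depths of 16200 and 22007 UMIs in the H3WT and H3R26C 5-Aza libraries. Their thinned shares were 2.68% and 4.44% for Pparg, 0.893% and 1.11% for Cebpa, and 2.68% and 5.56% for Srebf1. The negative cells of the same libraries were above these shares for all 3 genes (10.9% and 6.98%, 4.23% and 5.99%, 7.65% and 9.59%). The muscle-like shares rest on few of 112 and 180 cells, so the smaller gaps may lie within counting error.

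Per library, Pparg was found after thinning in 4 of 13, 20 of 31, 8 of 13 and 10 of 17 positive cells. Cebpa was found in 3 of 13, 21 of 31, 12 of 13 and 10 of 17, and Srebf1 in 8 of 13, 13 of 31, 8 of 13 and 13 of 17. H3WT DMSO was lowest for Pparg and Cebpa, with wide intervals, while for Srebf1 the lowest was H3WT 5-Aza. Of the abundant members, Cebpb was in 81.1% of positive (70.3 to 89.3) and 74.4% of negative cells. Ebf1 was in 73.0% (61.4 to 82.6) and 81.1%, and Cebpd in 17.6% (9.70 to 28.2) and 45.02%. Klf15 was in 4.05% of positive (0.844 to 11.4) and 0.256% of negative cells. Zfp423 was in 12.2% (5.71 to 21.8) and 7.82%, and Ebf2 in 2.70% (0.329 to 9.42) and 2.19%. The intervals of Cebpb, Ebf1, Zfp423 and Ebf2 included the negative share. These shares pool the 4 libraries and do not keep the pairing of the classes within a library. The mix of libraries differed between the classes, with H3R26C 5-Aza giving 17 of 74 positive and 7511 of 21485 negative cells.

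**Figure D3:**
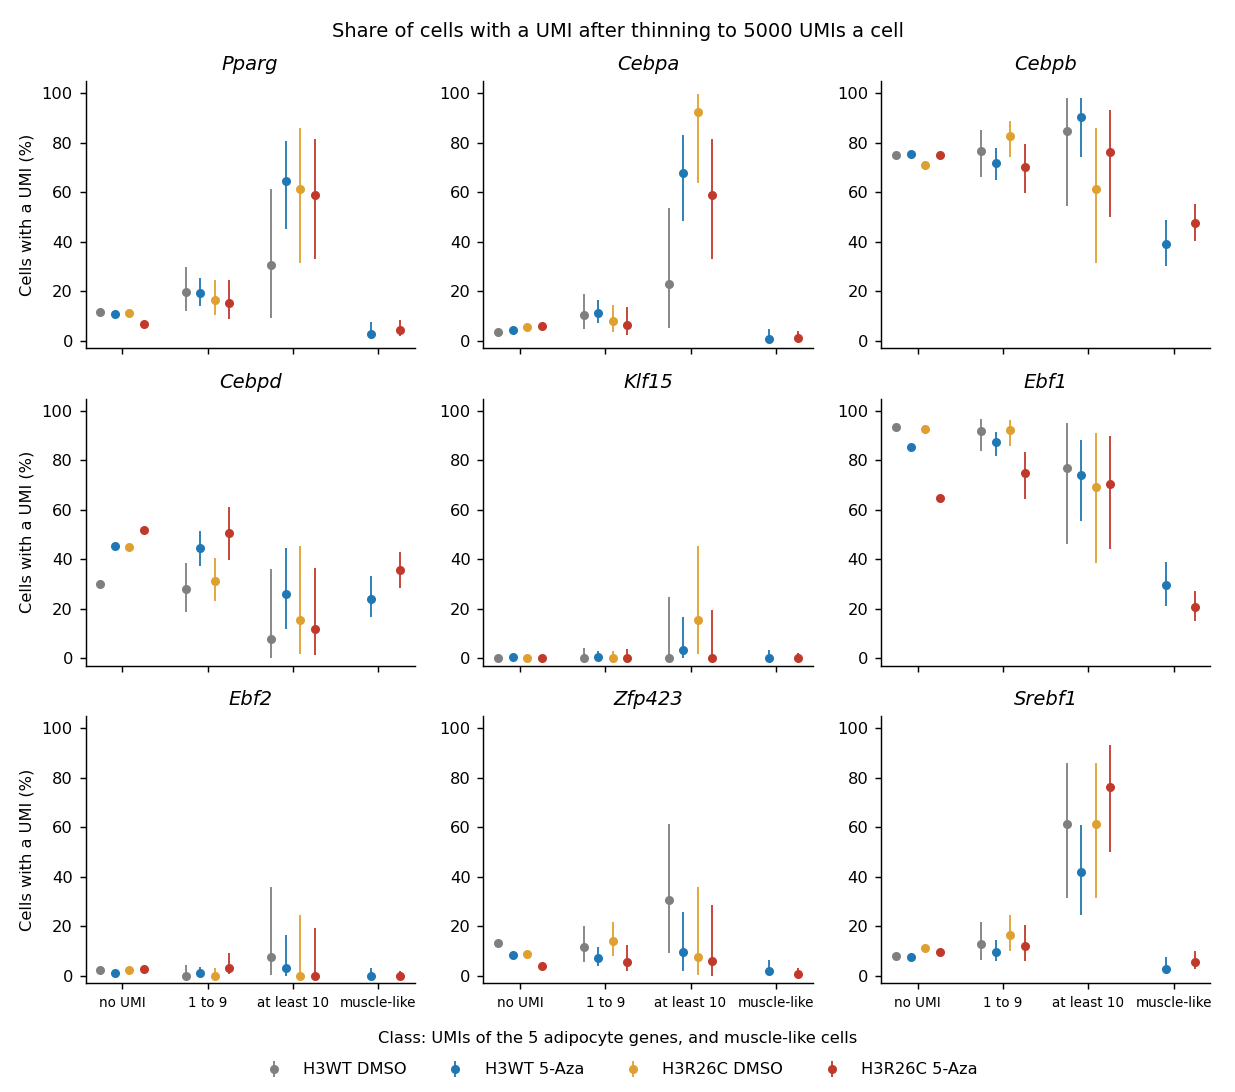
Share of cells (%) with at least 1 UMI of each member after thinning to 5000 UMIs, by library and class, with exact 95% binomial intervals, and with the muscle-like cells of the 5-Aza libraries. Cebpa is seen in 62.2% of all 74 positive cells and 5.08% of negative cells, whereas Cebpb (81.1% and 74.4%) and Ebf1 (73.0% and 81.1%) are seen in most cells of both classes.

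Of the 9 members, a positive cell had a median of 3, 4, 4 and 4 detected after thinning in the 4 libraries, and a negative cell a median of 2 in each. Pparg, Cebpa and Srebf1 were all found in 0, 7, 7 and 3 positive cells (0% to 53.8%), and in 1, 1, 3 and 2 negative cells. None of the 3 was found in 3, 3, 1 and 0 positive cells. Among intermediate cells the full set was found in 2, 2, 1 and 1 cells (0.870% to 2.33%).

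Detection of pairs in the same cell was set beside the product of the 2 shares in each class. Among positive cells Pparg and Cebpa were both seen in 28 cells, with 27.7 from the product (ratio 1.01). Among negative cells they were both seen in 113 cells, with 104 from the product (ratio 1.09, range 0.860 to 1.46 over libraries). Among intermediate cells the pair was seen in 17 cells with 8.41 from the product (ratio 2.02, range 1.35 to 2.81 over libraries). Cebpa with Srebf1 was seen in 13 with 5.47 (ratio 2.37, range 2.02 to 2.76). In no library did the interval of either of these ratios lie above 1. The larger ratios of negative cells, such as Pparg with Ebf2 (63 cells, 44.1 from the product) and Ebf2 with Zfp423 (48 cells, 34.9 from the product), rested on sparse counts. Of the 36 pairs, 0 had an interval above 1 in more than 1 library among negative cells.

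Cells with 1 to 9 UMIs of the adipocyte genes lay between the other classes in each library for Pparg, Cebpa, Cebpb and Srebf1. Pparg was at 48.2, 47.0, 51.3 and 35.1 CPM in intermediate cells, 1.81 to 2.32 times the negative level, with intervals above 1 in 4 of 4 libraries. Cebpa was at 20.2, 22.6, 17.1 and 23.4 CPM, or 1.37 to 2.52 times, and Srebf1 at 23.1, 24.4, 33.7 and 25.6 CPM, or 1.33 to 1.49 times, each with 3 of 4 intervals above 1. Cebpb was at 372, 422, 341 and 384 CPM, or 1.05 to 1.24 times, also with 3 of 4 intervals above 1. Klf15 had 4 UMIs in these 490 cells, at 0 to 1.05 CPM, and was not above the negative level beyond counting error in any library. Cebpd was lower than in negative cells in the DMSO libraries (0.763 and 0.739 times) and slightly higher in the 5-Aza libraries (1.08 and 1.13 times, the first with an interval that included 1).

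Muscle-like cells were low in the members. In the H3WT and H3R26C 5-Aza libraries, Ebf1 was at 114 and 66.2 CPM there, against 614 and 349 CPM in negative cells, and Cebpb at 127 and 157 against 339 and 364. Pparg was at 10.4 and 10.8 CPM, Cebpa at 5.21 and 3.92, Zfp423 at 4.69 and 1.72, Cebpd at 68.8 and 109, and Srebf1 at 10.4 and 17.4, each below the negative cells of its library. The interval of Srebf1 in H3R26C 5-Aza (13.6 to 21.9) included the negative level of 19.2 CPM, and that of Cebpa in H3WT 5-Aza (2.50 to 9.59) the negative level of 8.97 CPM. Klf15 had 0 UMIs in either library, which allows up to 1.56 and 0.735 CPM (3 counts), above its negative levels of 1.04 and 0.578 CPM, so a difference was not detectable.

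Between conditions, Ebf1 and Zfp423 were lowest in H3R26C cells after 5-Aza, and Ebf2 was highest there. With 1 library per condition there was no replicate check and no test; a fold was the ratio of CPM + 1 over all kept cells, for genes that averaged 1 CPM or more in the pair, which left out Klf15. In such sums, fewer expressing cells and less RNA per cell cannot be told apart. Of 8 members tested, 0 were past 2-fold for 5-Aza against DMSO in H3WT (4.53% of all genes) and 2 in H3R26C (11.1%). For H3R26C against H3WT, 0 were past it after DMSO (2.41%) and 1 after 5-Aza (7.43%). These counts are too small to set the members apart from all genes. Cebpd lay just under 2-fold for 5-Aza in H3WT (log2 0.99).

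Ebf1 was at 777, 612, 825 and 350 CPM in H3WT DMSO, H3WT 5-Aza, H3R26C DMSO and H3R26C 5-Aza. The counting intervals did not overlap, and the lowest library was at 0.424 of its DMSO control (interval 0.419 to 0.429; log2 of CPM + 1 -1.24). Zfp423 was at 26.3, 16.6, 17.7 and 8.23 CPM. The intervals of H3WT 5-Aza and H3R26C DMSO overlapped, and both genotypes were lower after 5-Aza, by -0.64 in H3WT and -1.02 in H3R26C (log2). Ebf2 was at 3.83, 2.39, 4.83 and 6.24 CPM, lower after 5-Aza in H3WT and higher in H3R26C, and H3R26C 5-Aza was 2.61 times H3WT 5-Aza (interval 2.22 to 3.06; log2 of CPM + 1 1.09).

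The C/EBP family was highest in treated H3R26C cells for Cebpb and Cebpd but not for Cebpa. Cebpd was at 92.0, 184, 167 and 242 CPM, 2.00 times higher after 5-Aza in H3WT (interval 1.95 to 2.06; log2 of CPM + 1 0.99) and 1.45 times in H3R26C (1.42 to 1.48). Cebpb was at 314, 343, 284.2 and 365 CPM, the steadiest of the 9, with its lowest and highest values both in H3R26C. Cebpa was at 9.07, 11.6, 14.4 and 13.2 CPM, lowest in H3WT DMSO, and H3R26C 5-Aza was at 0.913 of its DMSO control (interval 0.846 to 0.986). In negative cells alone, that last Cebpa ratio was 0.961 (0.884 to 1.04).

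Pparg was at 27.4, 26.3, 26.1 and 16.1 CPM. Over all kept cells the first 3 libraries did not differ beyond counting error, and H3R26C 5-Aza was at 0.619 of its DMSO control (interval 0.581 to 0.659) and 0.613 of H3WT 5-Aza (0.575 to 0.652). In negative cells alone, Pparg in H3WT 5-Aza was at 0.905 of H3WT DMSO (0.851 to 0.962). There, H3R26C DMSO was at 0.924 of H3WT DMSO (0.870 to 0.982). Srebf1 was at 16.6, 17.6, 23.7 and 19.98 CPM, with the H3WT libraries overlapping. Klf15 was at 0.622, 1.26, 0.274 and 0.632 CPM, highest in H3WT 5-Aza, where 84 of its 106 UMIs lay in negative cells.

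Skeletal muscle markers moved with 5-Aza. The 10 markers summed to 1.34 and 1.48 CPM in the DMSO libraries and to 1742 and 1951 CPM in the 5-Aza libraries, and 10 of 10 were past 2-fold higher in each genotype. With muscle-like cells left out, an alternative chosen after seeing the data, Ebf1 was at -1.19 and Zfp423 at -0.98 (log2) in H3R26C, so Zfp423 no longer passed 2-fold. No member changed the sign of any of the 4 contrasts in 9 alternatives.

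The target genes were read against the same shares over all genes, 4.53% and 11.1% for 5-Aza in H3WT and H3R26C and 2.41% and 7.43% for genotype after DMSO and 5-Aza. Of 10 PPARG targets above the minimum level, 2 were past 2-fold higher after 5-Aza in H3WT and 2 lower in H3R26C, with medians of 0.23 and -0.29 (log2) beside 0.04 and -0.03 over all genes. For H3R26C against H3WT, 1 was higher after DMSO and 2 were lower after 5-Aza, with medians of 0.18 and -0.40 beside 0.03 and -0.03. Summed over the 14 listed PPARG targets, H3R26C went from 461 CPM after DMSO to 438 after 5-Aza over all kept cells. In its negative cells alone the sum went from 357 to 383 CPM. The H3WT sums went from 450 to 602 CPM over all kept cells and from 414 to 454 CPM in negative cells. SREBP-1 targets had 1 of 12 higher after 5-Aza in H3WT and 1 of 11 lower in H3R26C (medians 0.05 and -0.59), and 0 of 11 and 1 of 12 lower in the genotype contrasts after DMSO and 5-Aza (medians -0.08 and -0.45). Other activators of adipogenesis had medians of -0.24 and -0.52 for 5-Aza in H3WT and H3R26C, and inhibitors of -0.05 and -0.04.

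**Figure D4:**
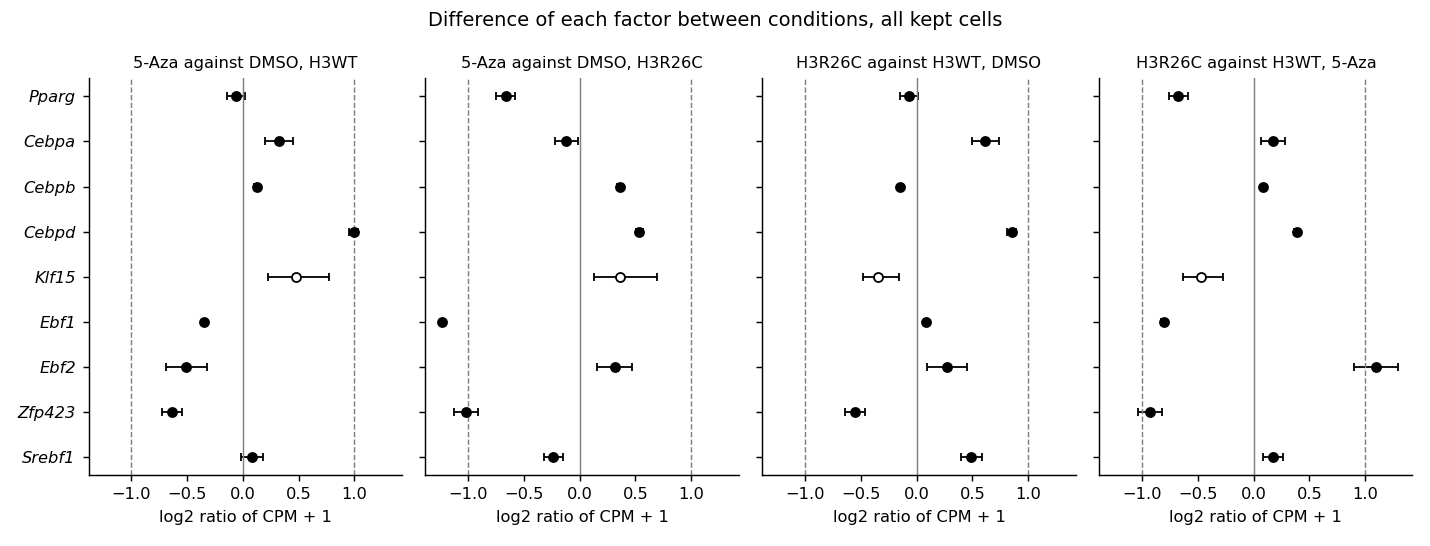
Log2 ratio of CPM + 1 between libraries for the 9 members in each of the 4 contrasts, with exact 95% intervals for counting error and dashed lines at 2-fold (1 and -1 on the log2 scale). The open circle marks Klf15, which was under the minimum of 1 CPM. Ebf1 (-1.24) and Zfp423 (-1.02) pass the line for 5-Aza against DMSO in H3R26C, and Ebf2 (1.09) for H3R26C against H3WT after 5-Aza.

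Within positive cells alone, the library of H3WT DMSO stood below the others for the master regulators. Pparg was 2.14 times higher in H3WT 5-Aza (interval 1.45 to 3.25) and 2.21 times higher in H3R26C DMSO (1.44 to 3.44). Cebpa was 1.66 times (1.23 to 2.28) and 2.59 times (1.90 to 3.56) higher in the same comparisons, and in H3R26C it was lower after 5-Aza than after DMSO (0.764, 0.600 to 0.970). Ebf1 had intervals that included 1 in all 4 contrasts of positive cells. The positive cells of H3WT DMSO were also lowest in the other adipocyte markers (4516 CPM against 12711 to 19462) and in the gate genes Adipoq (2174 against 3397 to 4180 CPM) and Retn (78.5 against 537 to 2054 CPM), and the part of this in the values was not tested. These values compare 13 to 31 cells of single libraries, and cells are not replicates.

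Listed target genes of these factors were higher in positive cells almost throughout. The cells were split by 5 adipocyte genes, so higher levels of other adipocyte genes were partly set by the split. Over all genes tested, 13.7% were higher and 14.9% lower. Of 14 listed PPARG target genes, 13 were tested and 13 were higher, with a median log2 difference of 6.43 beside -0.14 over all genes, although no more than 9 of them averaged 2 CPM in negative cells too. Gpd1, which makes glycerol 3-phosphate for triglycerides, was at 142 to 1198 CPM against 1.16 to 2.27 CPM (log2 8.67 ± 0.420, SE). Aqp7, a glycerol channel, differed by 8.31 ± 0.883. Cd36, a fatty acid transporter, differed by 8.54 ± 0.914 but had no UMI in the positive cells of 1 library. Both passed the minimum level through the positive cells, with at most 0.130 CPM (Aqp7) and 0.504 CPM (Cd36) in negative cells. Of 13 SREBP-1 targets, 12 were higher and the median was 2.58, and 11 of the 13 averaged 2 CPM in negative cells too. Scd1, a fatty acid desaturase, was at 3577 to 5530 CPM against 31.9 to 36.7 CPM (7.32 ± 0.250). Thrsp differed by 9.91 ± 0.539 and Pnpla3 by 10.29 ± 1.07, and both passed the minimum level through the positive cells. Pnpla3 had no UMI in the positive cells of H3WT DMSO and at most 25.8 CPM in any library. Its negative cells had at most 0.0244 CPM, so its estimate rested on few UMIs and its levels overlapped between the classes.

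Among 16 other activators of adipogenesis, 15 were tested, 6 were higher and 3 lower, with a median of -0.03. The shares over all genes tested were 13.7% higher and 14.9% lower. Nr1h3, the oxysterol receptor LXR alpha, differed by 6.61 ± 0.745 (log2, SE) but passed the minimum level through the positive cells alone, Ppargc1a, a coactivator of mitochondrial genes, by 1.49 ± 0.263, and Rxra, the partner of PPARG on DNA, by 1.37 ± 0.209. Of the Krüppel-like factors in the list, 3 were lower, Klf4 by -3.03 ± 0.302, Klf6 by -1.87 ± 0.234 and Klf9 by -0.86 ± 0.220, while Klf5 was not called (-0.26 ± 0.495). Levels of Ppargc1a and Klf9 overlapped between the classes over the libraries.

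Of 15 inhibitors of adipogenesis, 13 were tested, 0 were higher and 6 lower, with a median of -1.30 (-1.14 with Wnt6 at its bound). Beside these, 13.7% of all genes tested were higher and 14.9% lower. Dlk1, the preadipocyte factor that is lost as fat cells mature, was at 0 to 12.7 CPM in positive and 32.2 to 120 CPM in negative cells (log2 -3.56 ± 0.417, SE). Runx1t1 differed by -2.69 ± 0.536. Wnt6 had no UMI in positive cells, at least 2.21-fold lower over the class on a floor of 3 counts, and was called in 5 of 16 alternative fits. Of 8 thermogenic genes, 3 were tested and higher (Cox8b 5.35, Cox7a1 3.78 and Ppargc1a 1.49 on the log2 scale), while Ucp1, Cidea, Dio2, Prdm16 and Elovl3 were under the minimum level. Ucp1, Cidea and Elovl3 had no UMI in the positive cells of any library. Ppargc1a overlapped between the classes (3.22 to 146 CPM against 1.76 to 40.7 CPM). The 8 genes summed to 385 and 377 CPM in muscle-like cells of H3WT and H3R26C 5-Aza, beside 534 and 158 CPM in positive cells there.

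Markers of adipocytes and of other cell types differed between the classes, which were themselves split by adipocyte genes. Of 10 other adipocyte markers, most of them also PPARG targets, 8 were tested and 8 were higher, of which 5 averaged 2 CPM in negative cells too, with sums of 4516 to 19462 CPM in positive cells and Lep at 0 in 3 of the 4 libraries there. Of 5 progenitor markers, 0 were higher and 4 lower (median -2.32; Pdgfra -2.32, Thy1 -2.42 and Ly6a -2.93), with sums of 103 to 782 CPM in positive cells. Smooth muscle markers had 3 of 3 tested lower, skeletal muscle 3 of 10, chondrocyte 2 of 4 and osteoblast 1 of 2. None was higher in these lists, and the 1 blood marker tested was not called. The shares over all genes tested were 13.7% higher and 14.9% lower, and the lists, of few genes each, were not tested against them. Myog, Ttn, Myh3, Tagln, Acta2, Matn3 and Ly6a had levels that overlapped between the classes over the libraries. Ly6a was at 10.7 to 646 CPM in positive and 582 to 1587 CPM in negative cells. The skeletal muscle sum went the other way in H3R26C 5-Aza, the library with the cell that was both positive and muscle-like (2811 CPM in positive and 1944 CPM in negative cells), and in H3R26C DMSO (6.46 and 1.32 CPM, the former on 2 UMIs). The 5 endothelial markers were at 0 in positive cells and summed to 0.319 to 9.41 CPM in negative cells. In each library that sum was below what 3 counts allow in positive cells (5.43 to 10.7 CPM), so a difference was not detectable.

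Genes whose levels ran most like those of each member were ranked by Pearson's r of log2(CPM + 1) over 12 sums, the 3 classes in 4 libraries, among 8467 genes. The sums share libraries and classes, so r is a description. Srebf1 ran closest to Dgat1, which makes triglycerides (r = 0.991), and Cebpa was also among its matches (0.986). Cebpa itself ran close to Marc2 (0.987) and to Adig, an adipocyte gene (0.986). Pparg ran closest to Ccdc80 and Lss (0.976 each) and to Adig (0.971), Klf15 to Me1, malic enzyme (0.984), and Cebpd to Cdkn2d (0.975) and to Lum, a matrix proteoglycan (0.972). Cebpb was closest to Cmbl (0.950), Ebf1 to Mrgbp (0.980), Zfp423 to Plekhm2 (0.962) and Ebf2 to 2410006H16Rik (0.948).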

How the data were processed

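Single-cell libraries were made on a 10x Genomics platform from 50000 submitted cells per sample. The authors deposited unnormalized UMI counts per gene and barcode, made with Cell Ranger (version 6 per the labels, 6.1.0 per the file headers) on mm10. Seurat 4 is named as a further tool in the submitters' notes. The 9 members, the gene lists and the tests were chosen with earlier results of these data known. Barcodes were filtered as given in the report, and counts were summed per library and class. Positive and negative sums were compared with edgeR 4.0.16 (TMM scaling, glmQLFit, glmQLFTest, library as a block, the 5 gate genes left out), with DESeq2 1.42.0 as an alternative, in R 4.3.3. The SE given with edgeR values is the size of the log2 difference over the square root of the F statistic. It is therefore not independent of the p-value. The script was tested on simulated data. Condition ratios used a pseudocount of 1 CPM and conditional binomial intervals. Thinning used a fixed seed. In each other list, up to 3 called genes per direction with the largest difference were named, and for each member up to 3 genes with the highest correlation (mean of at least 10 CPM), of which 1 gene is not reported here. Filters, gates, scaling, pseudocount and left-out libraries were varied. Cells of 1 library are not replicates, and nothing states that the 4 libraries are separate cultures.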

Additional observations from a re-analysis of the deposited data

Results flagged for a closer look

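Klf15 in H3WT DMSO stood apart from the other libraries in its log2 ratio of CPM + 1, positive to negative cells (1.50 against 3.81 to 4.12 in the other 3). The gap to its nearest neighbour was 0.884 of the whole range over 4 libraries, past the critical value of Dixon's test, and rested on 1 UMI. Chance gives such a gap in about 1 in 20 groups. The negative levels were 0.220 to 1.04 CPM, so the pseudocount of 1 CPM weighed heavily on these ratios. Without it the ratio was 5.81 in H3WT DMSO against 33.1 to 73.4, and the gap was not tested on that scale.

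For 2 members, the ratio of 5-Aza to DMSO had opposite signs in the genotypes with counting intervals that excluded 0 in both, in single libraries and with no test of the difference. Cebpa was higher after 5-Aza in H3WT (0.32) and lower in H3R26C (-0.12), a difference of -0.445 on the log2 scale. With the mean of per-cell CPM the H3R26C value was close to 0 (-0.0033). In negative cells alone, neither Cebpa change lay beyond counting error (1.10-fold, 0.989 to 1.22, in H3WT and 0.961-fold, 0.884 to 1.04, in H3R26C). Positive cells held 7.23% and 19.1% of Cebpa UMIs in H3WT DMSO and H3WT 5-Aza, and 13.4% and 8.56% in H3R26C DMSO and H3R26C 5-Aza. Ebf2 was lower in H3WT (-0.51) and higher in H3R26C (0.31), a difference of 0.822. Srebf1 also had opposite signs (0.08 and -0.24), with an H3WT interval that included 0.

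For 2 others, the order of the genotypes turned between treatments, again untested. Cebpb was lower in H3R26C than in H3WT after DMSO (-0.15) and higher after 5-Aza (0.09), a difference of 0.233. Ebf1 was higher in H3R26C after DMSO (0.09) and lower after 5-Aza (-0.81), a difference of -0.892.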

How the results depend on the processing

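Between positive and negative cells, Pparg, Cebpa, Cebpb, Cebpd, Klf15 and Srebf1 were called by the edgeR quasi-likelihood test or, in 1 fit, DESeq2 in 16 of 16 alternatives, Ebf1 in 12 and Zfp423 in 6, and no member changed direction. Over the alternatives 6 to 8 members and 2448 to 3936 genes were called. Leaving out each library in turn gave 6 to 8 members and 2448 to 2823 genes. Without the library as a block, which here is the pairing of the classes (no replicate block), 6 members and 2688 genes were called, with Ebf1 (adjusted p = 0.0951) and Zfp423 (0.263) lost. For the conditions, no block could be fitted. No paired analysis was possible because there was a single library for each of them. For 5-Aza against DMSO in H3WT, 1 member (Cebpd) passed 2-fold with a pseudocount of 0.1 CPM, with the mean of per-cell CPM, without the deepest 5% of cells and without muscle-like cells. In H3R26C, 1 passed with the mean of per-cell CPM and without muscle-like cells, where Zfp423 dropped out. For H3R26C against H3WT after 5-Aza, 2 passed with a pseudocount of 0.1 CPM, where Zfp423 joined Ebf2. Of the values for single members, 449 stayed, 59 moved, 14 lost their call and 0 reversed. The 74 positive cells, with 13 in each DMSO library, limit Klf15, Ebf2 and Zfp423 to few UMIs, and the 1 library per condition leaves the conditions without a test.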
